A study of Homo sapiens with 24 samples.

Results

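The mitotic kinesins examined here are 10 genes, KIF11, KIF14, KIF15, KIF18A, KIF18B, KIF20A, KIF23, KIF2C, KIF4A and KIFC1. They were chosen by name as motors of the spindle and of cytokinesis, with earlier results of these data known. They were found on the arrays through the RefSeq accession of each probe. This gave 13 probes, the same 13 on both array versions. The 24 h array held 20992 RefSeq-named genes and the 48 h array 22439. KIF18B, KIF23 and KIF4A had 2 probes each and the other 7 genes had 1. Each of the 13 probes exceeded the background threshold (on 3 arrays or more, a signal over the negative controls' mean by 3 of their SDs) at both time points.

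The data come from LNCaP cells, an established androgen-sensitive prostate cancer cell line with wild-type p53. The cells were electroporated with 1 of 3 siRNAs: si-A1 against the long non-coding RNA TAPIR-1, si-A2 against the long non-coding RNA TAPIR-2, or the scrambled control si-SCRL. RNA was taken after 24 h and after 48 h from 4 biological replicates per siRNA, and each of the 24 samples was read on its own 1-colour Agilent array. This gave 3 groups at each time point, all in the same cell line, with no untransfected cells and 1 siRNA per target. Replicate 2 of si-A2 at 48 h was left out because its array was dim, so that si-A2 at 48 h has n = 3. The bright corner control spots of that array had a median intensity of 5032, against 386747 to 491967 on the other arrays of the time point.

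Kinesins are motor proteins that use ATP to move along microtubules or to take apart their ends. The mitotic members build and size the spindle, align chromosomes and, after the chromosomes have separated, organise the central spindle at which the cell divides. Their messenger RNAs are low in resting cells and accumulate towards mitosis, and a short promoter element, the cell cycle homology region (CHR, TTTGAA or TTTAAA), is the best known site through which the DREAM and MuvB complexes control such late cell cycle genes. Next to it, these promoters often carry CCAAT boxes, the binding site of NF-Y. In a bulk RNA measurement of this kind, fewer cells that express a gene and less RNA per cell cannot be told apart.

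To show what the members share at the sequence level, the promoters were read from RefSeq (GRCh38.p14), each as 300 bases from 250 before to 50 after the transcription start. A CHR in either orientation lay within this window in 10 of the 10 members, against 24.0% of 34796 promoters of the same length. A CCAAT box on either strand was found in 8 of 10, the exceptions being KIF15 and KIF2C, against 34.6% of all promoters. An E2F site (TTCCCGC, or else TTGGCGC or TTCGCGC, on either strand) was found in 3 of 10 (KIF15, KIF18A and KIF18B), against 11% of all promoters. TTTAAA reads the same on both strands and was counted once. A CCAAT box and an E2F site can share the letters TTGG, but no 2 different motifs overlapped in the members, and the 2 E2F matches of KIF18A overlap each other. The CHR nearest to the start lay upstream of it in KIF11 (first base at -28, counted from the start), KIF15 (-35), KIF18A (-10), KIF20A (-41), KIF23 (-55) and KIF4A (-34). It lay at the start in KIF2C (-3) and just after it in KIF14, KIF18B and KIFC1 (first base 2, 3 and 5 of the transcript). The RefSeq start used for KIFC1 lies inside its annotated gene. These are letter matches, not measured binding. The 120 bases before the start are shown for the 6 genes whose CHR lies within them, because the order of CCAAT box and CHR can be read there. Each is written 5′ to 3′ on the strand of the gene, and capitals mark CHR, CCAAT and E2F letters on either strand (ATTGG is CCAAT and TTCAAA is TTTGAA on the other strand).
KIF11, chr10:92593010-92593129, plus strand: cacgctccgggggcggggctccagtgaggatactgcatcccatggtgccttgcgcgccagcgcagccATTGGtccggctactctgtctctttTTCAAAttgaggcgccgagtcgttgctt
KIF15, chr3:44761674-44761793, plus strand: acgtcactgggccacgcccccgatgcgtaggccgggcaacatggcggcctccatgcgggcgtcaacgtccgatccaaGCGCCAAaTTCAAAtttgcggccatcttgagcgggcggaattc
KIF18A, chr11:28108157-28108276, minus strand: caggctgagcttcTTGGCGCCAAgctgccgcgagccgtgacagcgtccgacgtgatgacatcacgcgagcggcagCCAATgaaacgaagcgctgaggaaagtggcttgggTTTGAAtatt
KIF20A, chr5:138178992-138179111, plus strand: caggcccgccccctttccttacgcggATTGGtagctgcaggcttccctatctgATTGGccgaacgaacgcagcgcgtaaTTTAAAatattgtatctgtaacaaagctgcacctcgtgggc
KIF23, chr15:69414229-69414348, plus strand: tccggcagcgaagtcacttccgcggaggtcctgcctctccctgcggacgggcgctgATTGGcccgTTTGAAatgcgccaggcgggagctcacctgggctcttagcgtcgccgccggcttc
KIF4A, chrX:70289984-70290103, plus strand: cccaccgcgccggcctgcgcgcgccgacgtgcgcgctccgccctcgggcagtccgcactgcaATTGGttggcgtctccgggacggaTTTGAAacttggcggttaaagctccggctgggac
In 5 of these 6 stretches the CCAAT box nearest to the CHR lies upstream of it, and the KIF15 stretch has an E2F site in that place instead.

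Levels are given as the log2 of the processed intensity after quantile normalization between the arrays of a time point, and a fold change is the difference of 2 group means on that scale. A probe was called when its adjusted p, over all probes above the background threshold, was below 0.01 and its log2 fold change was at least 0.5 in size. Intensities differ between probes for reasons other than RNA amount, so each probe was compared only with itself. The median processed intensity of an array lay between 24.4 and 57.2 at 24 h and between 20.4 and 32.2 on the 11 arrays used at 48 h, and no spot was saturated. The LNCaP markers KLK3 and KLK2 were well above background on every array used, whereas the keratin KRT5 of basal cells and the neuroendocrine CHGA were so on none. Of the other basal and neuroendocrine markers, TP63 was well above background on 7 of 12 arrays at 24 h and 1 of 11 at 48 h, and SYP on 9 of 12 and 8 of 11. Of 8 markers of other cell types, 6 passed the background threshold, of which the leukocyte gene PTPRC, by its brightest probes, was well above background on all 12 and 11 arrays used and the fibroblast gene COL1A1 on 3 of 12 and 0 of 11. None of these 6 was called after either siRNA at either time, with 1 lower after si-A1 at each time and 1 higher after si-A2 at 24 h at an unadjusted p below 0.05. No probe had an accession of TAPIR-1. The TAPIR-2 probe A_19_P00318461 had log2 fold changes of -0.98 (SE 0.33, adjusted p = 0.23) after si-A2 and -0.40 (SE 0.33, adjusted p = 0.62) after si-A1 at 24 h, and of 0.23 (SE 0.26, adjusted p = 0.70) and 0.18 (SE 0.24, adjusted p = 0.69) at 48 h, and a second TAPIR-2 probe of the 48 h array stayed near background throughout, so these arrays do not by themselves show the knockdown.

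At 24 h the mitotic kinesins were lower after both siRNAs. After si-A1, 8 of 13 probes fell (KIF11, KIF15, KIF20A, 1 probe of KIF23, KIF2C, both probes of KIF4A, and KIFC1), whereas 1.02% of all 44849 probes tested were called lower. After si-A2, 8 of 13 fell as well, against 0.838% of all probes. Of these, 7 were called after both siRNAs, KIF4A A_23_P148475 was called after si-A1, and KIF14 after si-A2. None was called higher (0.0803% and 0.0892% of all probes were). The median log2 fold change of the 13 probes was -1.31 for si-A1 and -1.36 for si-A2, while the median of all probes was 0.04 for each. In 13 of 13 probes the 4 si-A1 arrays lay below all 4 si-SCRL arrays (5.39% of all probes did so), and in 11 of 13 the 4 si-A2 arrays did (4.42%). Both comparisons use the same 4 si-SCRL arrays. Each time point was run on 2 slides, each with 2 replicates of every siRNA. Within the slide of replicates 1 and 2 the medians were -1.17 for si-A1 and -1.39 for si-A2, and within that of replicates 3 and 4 they were -1.49 and -1.54. All 13 probes were lower within each slide, except that KIF18B A_33_P3232516 had 0.01 after si-A2 in the slide of replicates 1 and 2. The si-A1 count of 8 became 4 without si-SCRL replicate 2, si-A1 replicate 2 or si-A1 replicate 4, 5 without si-SCRL replicate 4, and 2 when the si-A2 arrays were kept out of the fit. The si-A2 count of 8 became 5 without the si-A1 arrays in the fit.

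**Figure D1:**
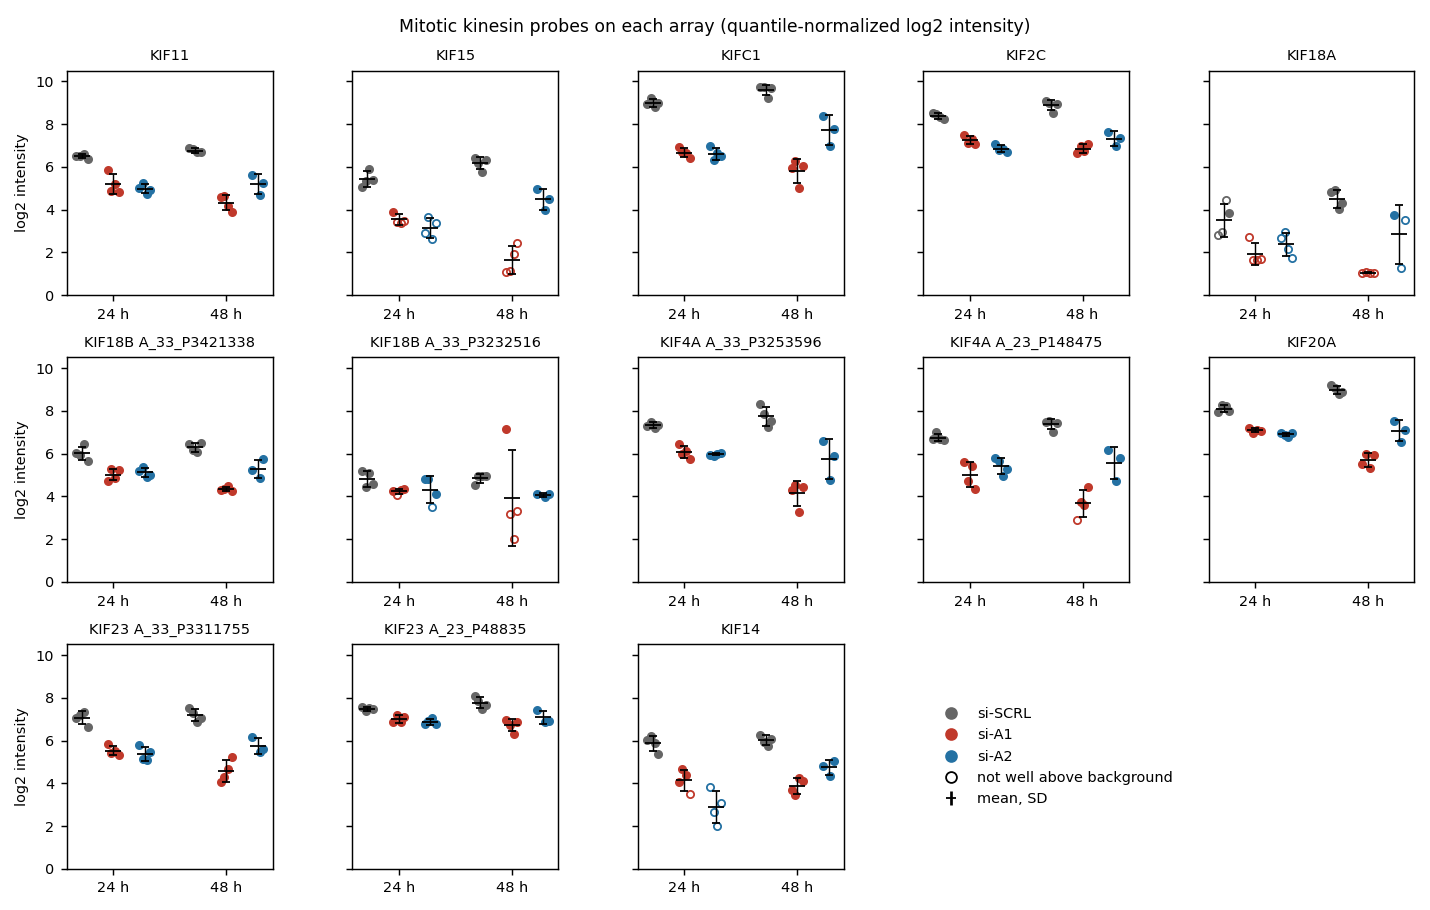
Quantile-normalized log2 intensity (vertical axis) of each of the 13 mitotic kinesin probes on each array used, at 24 h (left of each panel) and 48 h (right), for si-SCRL (grey), si-A1 (red) and si-A2 (blue). Open circles are arrays on which the probe was not well above background, and bars give the mean and SD of n = 4 arrays (n = 3 for si-A2 at 48 h). The si-SCRL arrays lie above the siRNA arrays at both times, except for KIF18A and KIF18B A_33_P3232516, where values overlap.

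Of the motors that set the 2 poles of the spindle, KIFC1 fell most after si-A1 at 24 h. It is the minus-end directed motor that draws the poles together and holds extra centrosomes in clusters. KIFC1 (chr6:33391461-33409896) measured 8.96, 9.21, 8.79 and 9.0 on the si-SCRL arrays, 6.91, 6.70, 6.63 and 6.40 after si-A1, and 6.99, 6.33, 6.64 and 6.5 after si-A2. The 2 siRNA groups overlapped each other and lay far below si-SCRL. KIFC1 fell 5.03-fold after si-A1 (log2 fold change -2.33, SE 0.16, adjusted p = 5.5e-05) and 5.18-fold after si-A2 (-2.37, SE 0.16, adjusted p = 3.4e-05).

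KIF11 (Eg5, chr10:92593130-92655395) is the tetrameric motor that slides antiparallel microtubules and pushes the poles apart, and the target of spindle poisons such as monastrol. Its si-SCRL arrays read 6.5, 6.52, 6.61 and 6.38. The si-A1 arrays read 5.86, 4.88, 5.20 and 4.81, with replicate 1 the highest, and the si-A2 arrays read 5.01, 5.23, 4.72 and 4.92. KIF11 fell after si-A1 (-1.31, SE 0.21, adjusted p = 0.0067) and after si-A2 (-1.53, SE 0.21, adjusted p = 0.0025). KIF15 (chr3:44761794-44868687), which can stand in for KIF11, had values of 5.04 to 5.92 after si-SCRL, 3.37 to 3.89 after si-A1 and 2.63 to 3.64 after si-A2. It fell by 1.89 on the log2 scale after si-A1 (SE 0.26, adjusted p = 0.0027) and was well above background on 1 of the 4 arrays there. With si-A2 no array had it well above background, so the level there is a bound, and KIF15 was at least 3.29-fold lower (adjusted p = 8.0e-04).

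Among the motors that act on microtubule ends, KIF2C fell and the KIF18 genes were less clear. KIF2C (MCAK, chr1:44739837-44767767), which takes apart microtubules at kinetochores and corrects wrong attachments, had values of 8.49, 8.46, 8.35 and 8.23 after si-SCRL, 7.50, 7.12, 7.29 and 7.09 after si-A1, and 7.08, 6.78, 6.84 and 6.70 after si-A2. The 3 groups did not overlap, with si-A2 lowest, but the nearest si-A2 and si-A1 arrays read 7.08 and 7.09. All si-A2 arrays lay below all si-A1 arrays in 1 of the 13 probes, KIF2C, and in 4.92% of all probes. KIF2C fell after si-A1 (-1.13, SE 0.13, adjusted p = 9.3e-04) and after si-A2 (-1.53, SE 0.13, adjusted p = 1.2e-04), but the difference between the siRNAs (-0.40, 95% CI -0.69 to -0.11) had an adjusted p of 0.22 and was not called. KIF18A (chr11:28020619-28108156), which shortens kinetochore microtubules and damps the movements of chromosomes, was well above background on 1 of the 12 arrays, with 2.79 to 4.44 after si-SCRL, 1.63 to 2.70 after si-A1 and 1.75 to 2.94 after si-A2. No siRNA array was well above background, so no fold is given, and the adjusted p of 0.096 and 0.29 missed the threshold.

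KIF18B (chr17:44924711-44947773) works with KIF2C at the plus ends of astral microtubules. Neither of its probes was called at 24 h. The probe A_33_P3421338 ranged from 5.67 to 6.44 after si-SCRL, from 4.73 to 5.27 after si-A1 and from 4.92 to 5.36 after si-A2, with log2 fold changes of -0.99 (SE 0.20, adjusted p = 0.027) and -0.89 (SE 0.20, adjusted p = 0.053). These groups did not overlap si-SCRL. The dimmer probe A_33_P3232516 gave -0.58 (SE 0.28, adjusted p = 0.41) and -0.50 (SE 0.28, adjusted p = 0.54), and after si-A2 its values of 3.53 to 4.83 overlapped the 4.43 to 5.17 of si-SCRL.

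KIF4A (chrX:70290104-70420886) is a chromokinesin: it binds chromosome arms, works with condensin, and with PRC1 limits the length of the central spindle. Its near-identical retrogene KIF4B could add signal to these probes. The probe A_33_P3253596 read 7.28, 7.50, 7.22 and 7.36 after si-SCRL, 6.43, 5.96, 6.14 and 5.77 after si-A1, and 5.96, 5.91, 6.0 and 6.05 after si-A2. It fell after both siRNAs (-1.26, SE 0.15, adjusted p = 0.0011, and -1.36, SE 0.15, adjusted p = 7.2e-04). The probe A_23_P148475 fell after si-A1 (-1.73, SE 0.25, adjusted p = 0.0044), and its value after si-A2 (-1.33, SE 0.25, adjusted p = 0.025) was similar to that of the other probe but was not called.

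The motors of the central spindle and of cytokinesis were KIF20A, KIF23 and KIF14. KIF20A (MKLP2, chr5:138179112-138187723), which brings the Aurora B complex to the central spindle, is printed as 10 spots on the 24 h array and had the smallest SE of the members there. It read 7.95, 8.27, 8.22 and 7.98 after si-SCRL, 7.19, 6.98, 7.13 and 7.07 after si-A1, and 6.98, 6.90, 6.80 and 6.95 after si-A2. The si-SCRL arrays lay apart from both siRNA groups, which differed little. KIF20A fell 2.02-fold after si-A1 (-1.02, SE 0.12, adjusted p = 0.0013) and 2.29-fold after si-A2 (-1.20, SE 0.12, adjusted p = 4.7e-04).

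KIF14 (chr1:200551497-200620751), which localises citron kinase to the midbody, read 6.03, 6.21, 5.87 and 5.35 after si-SCRL, 4.04, 4.65, 4.38 and 3.48 after si-A1, and 3.81, 2.67, 1.98 and 3.10 after si-A2. The signal was well above background on 3 of the 4 si-A1 arrays and on none of the si-A2 arrays. KIF14 was at least 4.50-fold lower after si-A2 (adjusted p = 6.9e-04), its change after si-A1 (-1.72, SE 0.33) missed the threshold (adjusted p = 0.020), and it was at least 1.36-fold lower after si-A2 than after si-A1, which was not called either (adjusted p = 0.11). Across the 13 probes, limma called 0 between si-A2 and si-A1 at 24 h, where 0.366% of all probes were called in either direction. At an unadjusted p below 0.05, 2 of the 13, KIF14 and KIF2C, were lower after si-A2.

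KIF23 (MKLP1, chr15:69414349-69448427), the motor subunit of centralspindlin, was read by 2 probes that carry the same RefSeq accession and gave different sizes. The probe A_33_P3311755 read 7.07, 7.21, 7.34 and 6.63 after si-SCRL, 5.83, 5.43, 5.50 and 5.33 after si-A1, and 5.80, 5.12, 5.11 and 5.44 after si-A2. The probe A_23_P48835 read 7.56, 7.36, 7.50 and 7.48 after si-SCRL, 6.86, 7.21, 6.87 and 7.10 after si-A1, and 6.75, 6.90, 7.07 and 6.78 after si-A2. With either probe no siRNA array reached the lowest si-SCRL array, yet A_33_P3311755 was called after both siRNAs and A_23_P48835 (adjusted p = 0.14 after si-A1 and 0.055 after si-A2) after neither. The difference between the probes was then taken on each array. For si-SCRL, A_23_P48835 minus A_33_P3311755 averaged 0.41 ± 0.33 (SD, n = 4). The average was 1.48 ± 0.36 (SD, n = 4) for si-A1 and 1.51 ± 0.45 (SD, n = 4) for si-A2. The gap was thus wider by 1.07 and 1.1 after the siRNAs. That the KIF23 probes disagree in these data was known beforehand, so these values are a description with no test. At 48 h the same difference was 0.59 ± 0.03 for si-SCRL, 2.16 ± 0.63 for si-A1 (SD, both n = 4) and 1.34 ± 0.09 (SD, n = 3) for si-A2. Neither siRNA group overlapped si-SCRL. For KIF4A the difference between its probes widened by 0.47 after si-A1 at 24 h. An exact two-sided permutation test gave p = 0.0286, the smallest that 4 arrays a group allow. The adjusted p was 0.0857 over the 9 differences of the time point. Those of KIF23 are among the 9 and make this adjusted p smaller than KIF4A and KIF18B alone would. With a normexp background correction the KIF4A difference changed by -0.02. The KIF18B probes had exact p of 0.143 or more. The part of the transcript that each probe reads was not analysed here.

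**Figure D2:**
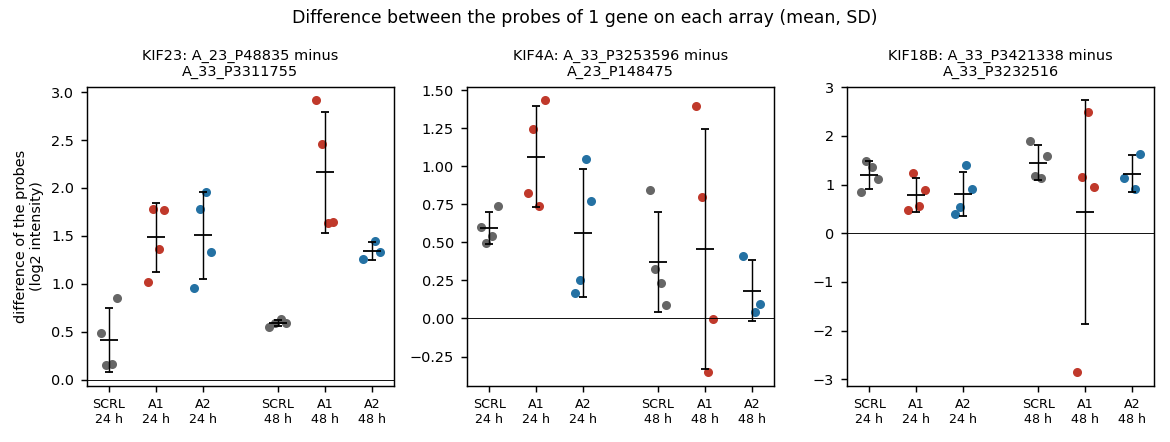
Difference in log2 intensity between the 2 probes of KIF23 (left), KIF4A (middle) and KIF18B (right) on each array, the brighter minus the other, in each siRNA group at 24 h and 48 h; horizontal marks and bars are mean and SD, and the vertical scales differ between panels. For KIF23 every siRNA array lies above every si-SCRL array of its time point, whereas for KIF4A and KIF18B the groups overlap except for si-A1 at 24 h in KIF4A.

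At 48 h nearly every member was lower after si-A1. In all, 12 of 13 probes fell, against 3.98% of all probes called lower, with a median log2 fold change of -2.62 beside 0.05 over all probes (KIF15 and KIF18A enter it by their measured means, which are bounds). The median was -3.24 within the slide of replicates 1 and 2, where 12 of 13 probes were lower, and -2.65 within that of replicates 3 and 4, where 13 of 13 were. With the dim si-A2 array kept in the fit, 0 of the 13 were called. In 12 of 13 the si-A1 arrays lay below all si-SCRL arrays (8.83% of all probes). The probe that did not pass was KIF18B A_33_P3232516. It read 7.16 on si-A1 replicate 1 but 3.18, 2.02 and 3.30 on replicates 2 to 4, against 4.54 to 4.98 after si-SCRL. Within the slide of replicates 1 and 2 its log2 fold change was 0.41, and within the other slide it was -2.28. Over all arrays its log2 fold change was -0.93 (SE 0.85, adjusted p = 0.54), and it became -2.01 and was called, for 13 of 13 probes, when si-A1 replicate 1 was left out. The other KIF18B probe read 4.30 on that array, beside 4.24 to 4.51 on the other 3.

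At 48 h KIF20A read 9.22, 9.06, 8.80 and 8.89 after si-SCRL, 5.52, 6.0, 5.33 and 5.96 after si-A1, and 7.54, 6.56 and 7.10 after si-A2 (replicates 1, 3 and 4). The si-A2 arrays lay between the other groups. KIF20A fell 9.79-fold after si-A1 (-3.29, SE 0.20, adjusted p = 5.1e-05) and 3.65-fold after si-A2 (-1.87, SE 0.22, adjusted p = 0.0061). KIFC1 read 9.73, 9.75, 9.23 and 9.67 after si-SCRL, 5.96, 6.28, 5.0 and 6.05 after si-A1, and 8.37, 6.99 and 7.77 after si-A2. It fell 13.6-fold after si-A1 (-3.77, SE 0.27, adjusted p = 6.8e-05), while the value after si-A2 (-1.79, SE 0.29) was not called (adjusted p = 0.018).

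Both probes of KIF4A fell after si-A1 at 48 h, A_33_P3253596 with a log2 fold change of -3.6 (SE 0.31, adjusted p = 1.7e-04) and A_23_P148475 with -3.68 (SE 0.38, adjusted p = 3.7e-04). The first of them ranged from 7.25 to 8.34 after si-SCRL, from 3.27 to 4.55 after si-A1 and from 4.77 to 6.59 after si-A2. Of the pole motors, KIF11 ranged from 6.67 to 6.86 after si-SCRL, from 3.88 to 4.65 after si-A1 and from 4.70 to 5.64 after si-A2, and it fell after si-A1 (-2.44, SE 0.15, adjusted p = 5.1e-05) and after si-A2 (-1.48, SE 0.16, adjusted p = 0.0049). KIF15 and KIF18A were well above background on none of the si-A1 arrays. KIF15 read 6.40, 6.16, 5.77 and 6.32 after si-SCRL and 1.09, 1.12, 1.90 and 2.46 after si-A1, none of the latter well above background, so that it was at least 7.78-fold lower (adjusted p = 8.2e-05). KIF18A read 4.00 to 4.90 after si-SCRL and 1.02 to 1.07 after si-A1, at least 2.48-fold lower (adjusted p = 0.0011). After si-A2 KIF15 was well above background on all 3 arrays, at 4.95, 3.97 and 4.50.

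The remaining members also fell after si-A1 at 48 h. KIF2C changed by -2.04 (SE 0.17, adjusted p = 1.3e-04), KIF14 by -2.14 (SE 0.22, adjusted p = 4.0e-04) and KIF18B A_33_P3421338 by -1.95 (SE 0.19, adjusted p = 2.9e-04). Both KIF23 probes were called, A_33_P3311755 at -2.62 (SE 0.28, adjusted p = 4.9e-04) and A_23_P48835 at -1.05 (SE 0.14, adjusted p = 0.0014).

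After si-A2 at 48 h, 3 of 13 probes were called (KIF11, KIF20A and KIF2C, the last at -1.54, SE 0.18, adjusted p = 0.0068), against 0.376% of all probes. The 3 si-A2 arrays nevertheless lay below all 4 si-SCRL arrays in 13 of 13 probes (7.23% of all probes), and the median log2 fold change was -1.54 beside 0.00 over all probes. The values that were not called ran from -0.63 (KIF23 A_23_P48835) to -1.85 (KIF4A A_33_P3253596). Within the slide of replicates 1 and 2 the median was -1.28 and within that of replicates 3 and 4 it was -1.69. With the replicate number as a block limma called 0 of the 13. It also called 0 when any 1 si-SCRL or si-A2 array, or si-A1 replicate 2 or 3, was left out. With a normexp background correction, or with none, 10 of 13 were called. An unadjusted limma p below 0.05 was found for 12 of 13. No share of all probes is given for those corrections or that p, so the counts of 10 and 12 cannot be compared with all probes.

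**Figure D3:**
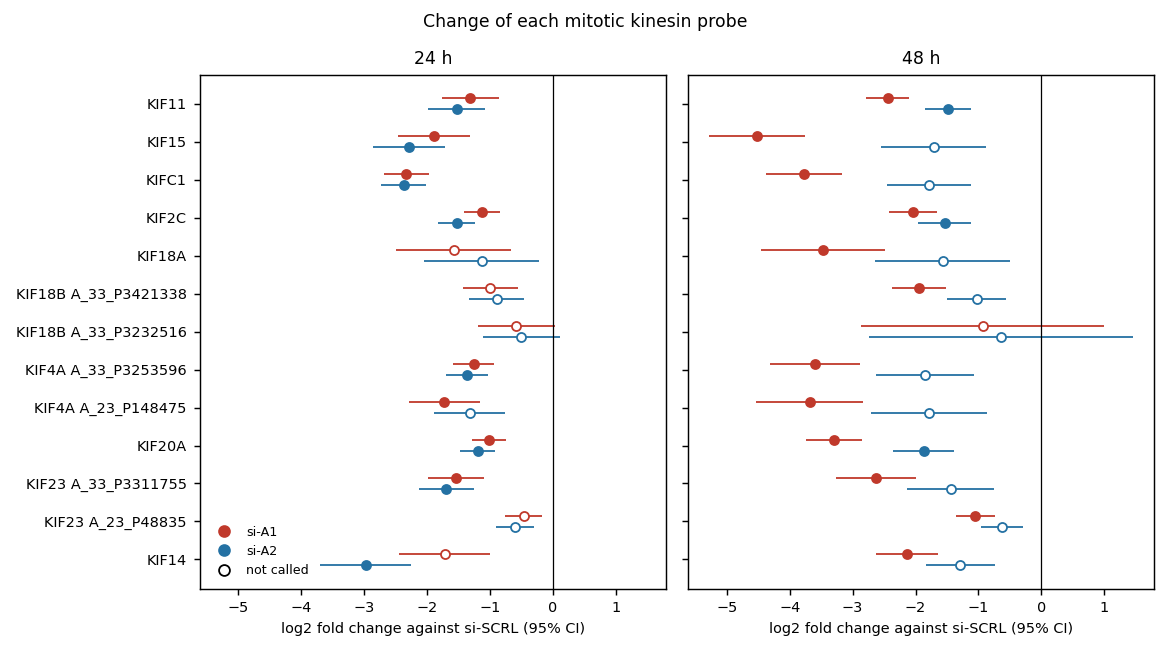
Log2 fold change against si-SCRL (horizontal axis, with 95% confidence interval from limma) of each of the 13 probes after si-A1 (red) and si-A2 (blue), at 24 h (left) and 48 h (right). Filled points were called and open points were not, and the points of KIF14 (si-A2, 24 h), KIF15 (si-A2, 24 h, and si-A1, 48 h) and KIF18A (all but si-A2 at 48 h) are measured values of probes not well above background. All points lie below 0, and at 48 h every si-A1 point lies left of its si-A2 point.

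The siRNAs differed from each other at 48 h. All 13 probes had the more negative measured mean after si-A1 (KIF18B A_33_P3232516 the less negative without si-A1 replicate 2 or 3, within the slide of replicates 1 and 2, and under other background corrections, and KIF23 A_23_P48835 with the dim array), and 3 of 13 were called higher with si-A2 than with si-A1, where 0.982% of all probes were. These were KIF15 (at least 2.41-fold higher, adjusted p = 0.0043), KIF20A (1.42, 95% CI 0.94 to 1.91, adjusted p = 0.0081) and KIFC1 (1.99, 95% CI 1.32 to 2.65, adjusted p = 0.0072). In 10 of 13 probes all si-A2 arrays lay above all si-A1 arrays (7.88% of all probes). The number called was 1 with the replicate number as a block. It was 1 without any 1 si-SCRL array, 0 without si-A1 replicate 1, 2 or 3 or si-A2 replicate 1 or 4, and 5 without si-A2 replicate 3. For KIF2C the difference was 0.51 (95% CI 0.09 to 0.92, adjusted p = 0.17), with overlapping arrays, and was not called.

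A change of an effect itself between the time points was tested with an interaction term, over the 35981 (si-A1) and 35984 (si-A2) probes tested on both array versions. Since the 24 h samples were run on version 2 and the 48 h samples on version 3 of the array, time and version cannot be told apart. For si-A1 the fitted change was below 0 in all 13 probes, with a median of -1.03 beside -0.03 over all probes, but the changes of KIF14 (-0.18) and KIF18B A_33_P3232516 (-0.15) turned above 0 when single arrays were left out. The change of KIF18A has no measured direction, because no si-A1 array had it well above background at either time. In the interaction test 2 of 13 were called (0.0806% of all probes were called lower and 0.05% higher): KIF20A (-2.24, SE 0.22, adjusted p = 4.1e-04) and KIF4A A_33_P3253596 (-2.25, SE 0.33, adjusted p = 0.0050). KIF20A was called whichever 1 of the 23 arrays was left out, and KIF4A A_33_P3253596 lost its call without any 1 of si-SCRL replicates 1, 2 and 4 and si-A1 replicates 1 to 3 at 24 h and si-SCRL replicates 1 and 4 and si-A1 replicates 1 to 3 at 48 h. KIFC1 (-1.38, adjusted p = 0.047) was not called, and no size is given for KIF15, whose 48 h level after si-A1 is a bound. For si-A2 the changes ran from -0.64 (KIF20A) to 2.00 (KIF14, 95% CI 1.05 to 2.95, adjusted p = 0.13), with 7 of 13 below 0 and 0 called by limma (0.00278% and 0.0333% of all probes were called lower and higher). KIF14 and KIF20A had an unadjusted p below 0.05. The KIF14 value starts from the bound at 24 h.

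**Figure D4:**
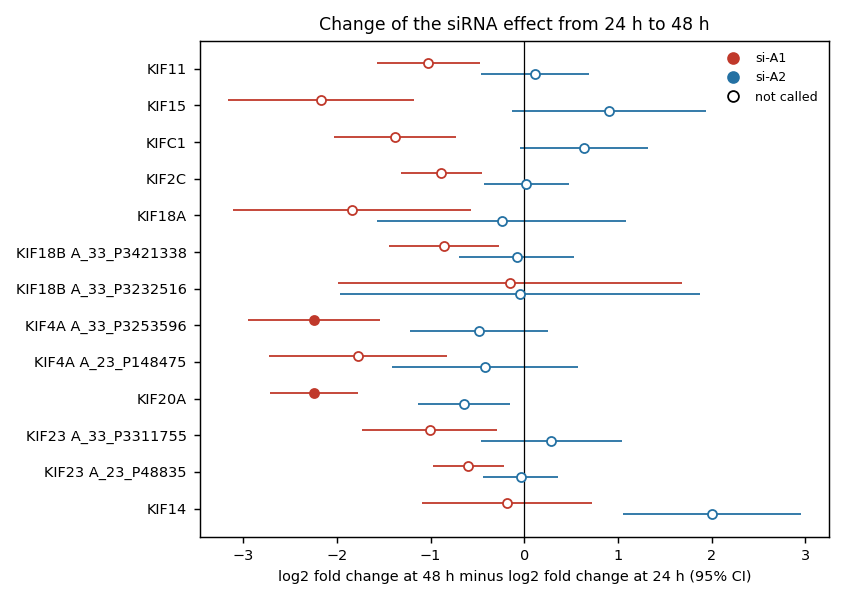
Log2 fold change against si-SCRL at 48 h minus that at 24 h (horizontal axis, with 95% confidence interval) for each of the 13 probes, after si-A1 (red) and si-A2 (blue). Filled points were called; the si-A1 points all lie below 0, with KIF20A and KIF4A A_33_P3253596 called and those of KIF15 and KIF18A resting on si-A1 levels not well above background, and the si-A2 points scatter around 0 apart from KIF14 at 2.00.

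Other kinesins and their partners were described by each gene's brightest probe at the time point. These lists were also chosen with earlier results of these data known, so their counts are a description. Of the other mitotic kinesins, 3 of 5 fell after si-A1 at 24 h: CENPE, the kinetochore motor that brings chromosomes to the spindle equator (-1.24, SE 0.18, adjusted p = 0.0041), KIF20B, a cytokinesis motor related to KIF20A (-1.32, SE 0.20, adjusted p = 0.0048), and the chromokinesin KIF22 (-1.0, SE 0.14, adjusted p = 0.0031). CENPE (-1.49, SE 0.18, adjusted p = 0.0013) and KIF20B (-1.39, SE 0.20, adjusted p = 0.0035) also fell after si-A2, and KIF22 (-0.82) was not called at an adjusted p of 0.012. The share of all genes called lower was 1.68% for si-A1 and 1.46% for si-A2. KIF2A, a kinesin-13 that also works in non-dividing cells, had values of 0.08 and -0.04, and KIF2B of -0.09 and -0.22, none called. At 48 h CENPE (-3.04), KIF20B (-2.58) and KIF22 (-2.13) fell after si-A1, 3 of 4 measured, against 6.19% of all genes, whereas KIF22 (-0.99) was the 1 of 4 called after si-A2, against 0.655%. Leaving out any 1 array ended that call. CENPE (-1.97, SE 0.28, adjusted p = 0.011) and KIF20B (-1.20, SE 0.22, adjusted p = 0.024) had larger log2 fold changes after si-A2 but missed the threshold. The 24 h count after si-A1 was 0 without si-SCRL replicate 1 or 2 or si-A1 replicate 2 or 4 and 1 without si-SCRL replicate 4 or si-A1 replicate 1 or 3, and the count after si-A2 was 1 without si-SCRL replicate 2 or si-A2 replicate 2, 3 or 4.

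Among 24 partners and regulators of the mitotic kinesins, 11 fell after si-A1 and 10 after si-A2 at 24 h, where 1.68% and 1.46% of all genes were called lower. The list was chosen with earlier results of these data known, so these counts are not independent of the data. The largest decreases after si-A1 among those called were in CDK1, the kinase that drives entry into mitosis (-2.41, SE 0.33, and -2.27, SE 0.33, after si-A2), BIRC5 or survivin, a chromosomal passenger that KIF20A carries (-2.07, SE 0.12, and -1.89, SE 0.12), the kinase AURKB of the same complex (-1.68, SE 0.20, and -1.74, SE 0.20) and the condensin subunit NCAPG (-1.62, SE 0.23, and -1.75, SE 0.23). All 8 of these values were called, with adjusted p between 1.4e-05 and 0.0043. NEK7, a kinase upstream of KIF11 at the poles, was the 1 gene of the list that rose (0.123% and 0.138% of all genes did), by 0.97 (SE 0.15, adjusted p = 0.0055) after si-A1 and 1.03 (SE 0.15, adjusted p = 0.0039) after si-A2. At 48 h 12 of 23 fell after si-A1 and 5 of 23 after si-A2 (6.19% and 0.655% of all genes). Those called after si-A1 included CDK1 (-3.49), BIRC5 (-3.72) and NCAPG (-2.44). The brightest 48 h probes of AURKB (-0.77 and -0.38) and NEK7 (-0.25 and -0.14) were not called. The brightest probe was picked at each time point on its own, so the 24 h and 48 h values may come from different probes. With the probe of the largest interquartile range instead, 14 partners were called lower after si-A1 at 48 h and 6 after si-A2. The count after si-A1 at 24 h was 4 without si-A1 replicate 2 or 4, 5 without si-SCRL replicate 2, and 7 without si-SCRL replicate 1 or 3 or si-A1 replicate 3. The count after si-A2 at 48 h was 0 without any 1 si-SCRL or si-A2 array and 1 without si-A1 replicate 2 or 3.

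The list of interphase kinesins and light chains had 0 of 31 genes called in either direction at 24 h after either siRNA, with medians of 0.12 and 0.09. Of all genes, 1.68% were called lower and 0.123% higher after si-A1, and 1.46% and 0.138% after si-A2, so that 0 of 31 is near the share of all genes. At an unadjusted p below 0.05 limma gave 2 lower and 2 higher after si-A1 and 3 lower and 2 higher after si-A2, and the values ran from -0.62 to 0.58 after si-A1 and from -2.04 to 0.69 after si-A2. At 48 h 1 of 30, KIF19, was called lower (-2.43, against 6.19% of all genes) and KLC3 higher (0.90, against 2.19% of all genes) after si-A1, and KIFC2 higher (0.85, against 0.0877%) after si-A2; these 3 genes were chosen for naming after their values were seen. Of 8 LNCaP markers, 6 had a value below 0 after si-A1 at 48 h and 2 were called lower (6.19% of all genes were), with KLK2 (-1.07, SE 0.13, adjusted p = 9.7e-04) among the latter, and their part in the result was not tested.

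**Figure D5:**
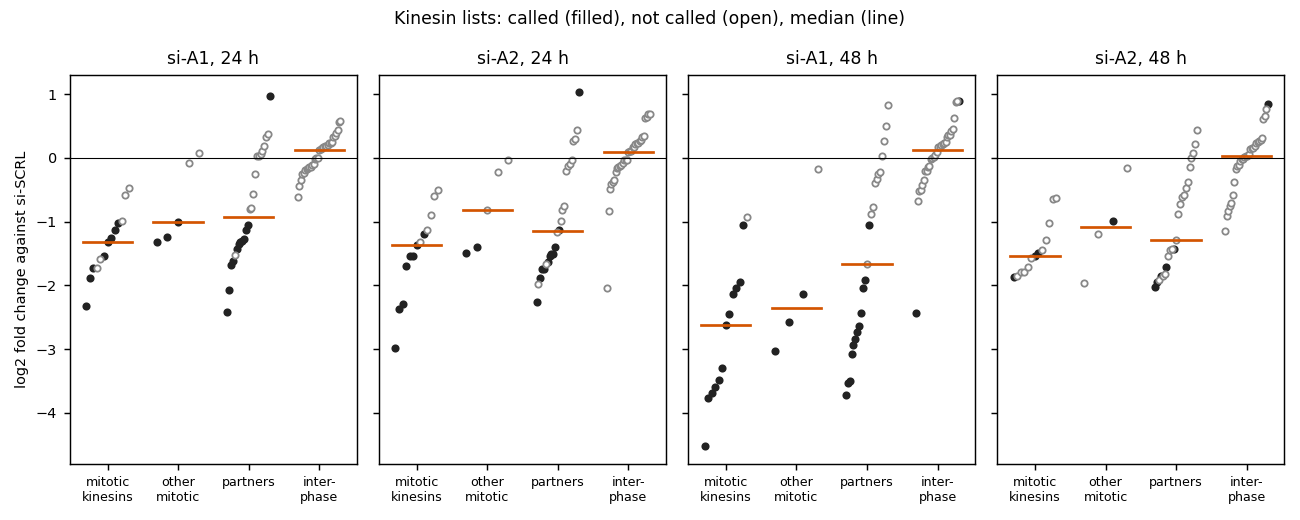
Log2 fold change against si-SCRL (vertical axis) of the 13 mitotic kinesin probes and of the genes in the 3 other lists, by siRNA and time; each point is 1 probe or gene, filled where called, ordered by value, and the orange line is the median of the list. The 3 lists that work in mitosis have medians between -0.82 and -2.62, and the interphase list has medians between 0.03 and 0.13.

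The genes outside the list whose pattern was most like that of the members at 24 h were found by the root mean square difference between a gene's 12 values and the median over the members, each set against its si-SCRL mean. Of 19466 genes the closest were RMI2 (0.13), CENPE (0.13), CCNA2 (0.14), TPX2 (0.14) and H2BC5 (0.15), with log2 fold changes between -1.13 and -1.36 after si-A1 and between -1.40 and -1.58 after si-A2. Of the members themselves, KIF4A (0.13), KIF2C (0.14) and KIF11 (0.16) lay closest to their own median. KIFC1 lay at 0.83, and no distance is given for KIF14, KIF15 and KIF18A, which were not well above background on the si-A2 arrays.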

How the data were processed

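RNA from the 24 LNCaP samples was hybridised by the authors to 1-colour Agilent arrays and read with Feature Extraction 11.5.1.1. The deposited scanner files hold the processed intensity of each spot, background-subtracted on a linear scale, and the authors' deposited table holds normalized log2 values, made per their notes with R 3.4.3 and limma 3.34.8. Their values served as an alternative. For this report R 4.3.3 with limma 3.58.1 and statmod 1.5.0 was used. For each time point the log2 processed intensities were quantile-normalized over all spots, control and outlier-flagged spots were left out, and spots of 1 probe were averaged. A probe passed when its signal was over the mean of the 308 negative controls by 3 of their SDs on 3 arrays or more. The fit held the 3 siRNA groups and the slide, with Benjamini-Hochberg adjustment over all probes tested, and a call needed an adjusted p below 0.01 and a log2 fold change of at least 0.5 in size. The study's additional minimum of 0.5 for the interquartile range was an alternative. For a group in which no array had a probe well above background, a fold is a bound, the other group's mean against the lowest signal flagged as well above background or the probe's own where higher. Lists of genes used the brightest probe of each gene, picked at each time point on its own. Differences between the probes of KIF4A and of KIF18B were tested with an exact two-sided permutation test, adjusted together with those of KIF23. The number of arrays limits the precision. The fits were tested on simulated data.

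Same-numbered samples at 48 h deviated together from their group means (r from 0.18 to 0.35, median 0.22, 10 pairs). Differently numbered samples of the same slide did so as well (median 0.19). The fit held the slide and did not pair samples by number, and the number as a block was an alternative. Each siRNA always held the same positions of a slide, so position and siRNA cannot be told apart. The members and gene lists were chosen with earlier results of these data known. Named genes were all member probes, the listed kinesins, the partners with the largest called changes and the 5 genes most like the members. Some marker genes are not reported here. Promoter windows and gene positions came from RefSeq tables of GRCh38.p14.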

Additional observations from a re-analysis of the deposited data

Results flagged for a closer look

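Of 65 groups of 4 arrays examined among the member probes, 5 held 1 array that lay apart from the other 3 by Dixon's criterion, which flags about 5% of groups by chance. KIF18A had 2.70 on si-A1 replicate 1 at 24 h, against 1.63 to 1.70 on the others, none of them well above background. KIF18B A_33_P3232516 had 4.54 on si-SCRL replicate 1 at 48 h, against 4.94 to 4.98. KIF4A A_23_P148475 had 7.0 on si-SCRL replicate 2 at 24 h, against 6.63 to 6.68, and 7.02 on si-SCRL replicate 3 at 48 h, against 7.45 to 7.51. KIFC1 had 9.23 on that last array, against 9.67 to 9.75. Those si-SCRL values all lay above the siRNA arrays of their probe and time, except for KIF18B A_33_P3232516, where si-A1 replicate 1 read 7.16.

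The effect of si-A1 differed between the time points, by the interaction term, for KIF20A (-2.24 on the log2 scale) and KIF4A A_33_P3253596 (-2.25). KIF20A was printed as 10 spots on the 24 h array and as 1 on the 48 h array.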

How the results depend on the processing

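All 1194 log2 fold changes of the members against si-SCRL from alternative fits stayed below 0, though not all differences within a slide did, and the cause of the moves below was not tested. Their sizes depended on the background correction. With normexp (offset 50), KIF11 had -0.64 after si-A1 at 24 h, against -1.31 in the report. At 48 h the si-A1 values were -1.13 for KIF11 (-2.44), -1.88 for KIF4A A_33_P3253596 (-3.6) and -2.82 for KIFC1 (-3.77). Folds given as bounds also hold only for the main processing. With normexp KIF14 had -0.68 (si-A2, 24 h) and KIF15 -1.07 (si-A1, 48 h). With the interquartile range filter the counts called lower after si-A1 at 24 h were 5 members (8 in the report), 5 partners (11) and 0 other mitotic kinesins (3), and 0 other mitotic kinesins (1) after si-A2 at 48 h. With only the groups compared, 2 members were called after si-A1 and 5 after si-A2 at 24 h, and 0 after si-A2 and 0 between si-A2 and si-A1 at 48 h. With no background correction, 10 members, 12 partners, 3 other mitotic and 1 interphase kinesin were called after si-A2 at 48 h, 5 members between the siRNAs, 5 with a changed si-A1 effect, and 1 interphase kinesin after si-A1 at 24 h. With normexp the counts after si-A2 at 48 h were 10, 10, 3 and 1, and 1 interphase kinesin was called after si-A1 at 24 h. Taking the probe with the largest interquartile range left 0 other mitotic kinesins after si-A2 at 48 h. Between the siRNAs at 48 h, 1 member was called with no filter and 1 with no slide term, which left 1 changed si-A1 effect. With the dim array kept, the 48 h counts were 0 after si-A1, 0 after si-A2 and 0 between them, with 0 changed effects. No share of all probes or genes is given beside the counts of these alternative fits.

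With the replicate number as a block, 5 members were called after si-A1 at 24 h, where same-numbered samples did not deviate together (r from -0.15 to 0.16, median 0.02), 0 after si-A2 at 48 h and 1 between the siRNAs at 48 h; the other counts of members moved by less than 1.5 times. Leaving out 1 array gave 4 to 8 members after si-A1 and 7 to 8 after si-A2 at 24 h, 12 to 13 and 0 to 3 at 48 h, 0 to 5 between the siRNAs at 48 h, and 1 to 2 changed si-A1 effects. It gave 4 to 11, 7 to 11, 11 to 12 and 0 to 5 partners in that order, and 0 to 3, 1 to 2, 3 to 3 and 0 to 0 other mitotic kinesins.

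The sign turned in the following values, none of them called. Within the slide of replicates 1 and 2, KIF18B A_33_P3232516 had 0.01 after si-A2 at 24 h, 0.41 after si-A1 at 48 h and -1.05 between the siRNAs at 48 h. The change of the si-A1 effect on KIF14 ran from -0.364 to 0.031 when 1 array was left out, the latter without si-A1 replicate 3 at 24 h. For KIF18B A_33_P3232516 it was -1.15 at the lowest, without si-A1 replicate 1 at 48 h, and it was 0.10 with no background correction, 0.06 without si-SCRL replicate 2 at 24 h, and at 48 h 0.04 and 0.05 without si-SCRL replicates 3 and 4 and 0.29 and 0.34 without si-A1 replicates 2 and 3. Its difference between the siRNAs at 48 h was -0.10 with no background correction, -0.0856 with normexp, -0.11 and -0.33 without si-A1 replicates 2 and 3, and 1.23 without si-A1 replicate 1. KIF23 A_23_P48835 gave -1.0 between the siRNAs with the dim array, and the difference between the KIF4A probes after si-A1 at 24 h changed by -0.0156 with normexp. Scaling on the 75th percentile moved the median of all probes after si-A1 to 0.12 at 24 h and 0.11 at 48 h. For KIF14, KIF15 and KIF18A the signal over background limits what can be read after the siRNAs.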
